A study of Homo sapiens with 4 samples.

Results

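The genes described here make cholesterol and fatty acids, or control and accompany that synthesis. They were chosen by name, with earlier results of these data known. Taken were all probe sets of the array whose single gene symbol in the platform annotation is among 33 listed genes. Of these, 30 genes were read, by 70 probe sets, out of 19775 genes and 54613 probe sets in all. A probe set is a group of short probes against 1 transcript, read as 1 value. CYP51A1 and FADS1 were not analysed here because their 2 and 3 probe sets carry the symbol of another gene as well, and no probe set named FDFT1 alone was found in the annotation used. The measured members were 7 enzymes of the mevalonate steps, 9 of the late sterol steps, 4 genes of SREBP control, 4 of lipid uptake and transport and 6 of fatty acid synthesis.

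Expression was measured on 4 Affymetrix arrays of LN-229 cells, a line grown from a human glioblastoma and long established in culture. The control group was 2 cultures without induction. The induced group was 2 cultures given doxycycline for 48 h to express WIF1, a secreted inhibitor of WNT signalling. The labels call the replicates biological and name no clone or construct, and no culture was given doxycycline without the aim of expressing WIF1, so effects of the drug and of WIF1 cannot be told apart. Values are log2 intensities, and every difference is induced minus control.

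Cells build cholesterol from acetyl-CoA in a long chain of enzymes. The first stretch leads through HMG-CoA and mevalonate to the isoprenoid farnesyl diphosphate, and the second turns that into squalene, closes the rings and trims the sterol to cholesterol. Fatty acids start from the same acetyl-CoA, are built by fatty acid synthase and are then lengthened and desaturated. Both routes are switched on by the SREBP transcription factors, which SCAP carries out of the endoplasmic reticulum when sterols are low and which INSIG proteins hold back when sterols are high. Glioblastoma cells are known to depend on lipid synthesis and uptake.

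Promoters are shown for 6 members with lower values after induction, picked with those values in view, and for SREBF2, since SREBP factors act at promoters together with NF-Y and Sp1. The stretches are the 250 bases before the start in RefSeq (GRCh38.p14), and 26 of the 30 measured members had one. ACAT2, SQLE, LPL and FASN had none. The 6 shown are not simply the lowest members, as SCD differed by -0.038 at its brightest probe set and by more at its others. The letters searched, on both strands, were TCACNCCAC (a sterol regulatory element), CCAAT (the NF-Y box) and GGGCGG (the Sp1 box), and capitals mark every match. Where a gene had several starts, stretches just downstream of another start were passed over and the one with most CCAAT matches is shown. They lie at chr5:43313413-43313662, minus strand (HMGCS1), chr16:88663092-88663341, minus strand (MVD), chr10:1049120-1049369, minus strand (IDI1) and chr5:111512536-111512785, minus strand (STARD4). The others lie at chr10:100346983-100347232, plus strand (SCD), chr17:17836987-17837236, minus strand (SREBF1) and chr22:41832855-41833104, plus strand (SREBF2).
HMGCS1: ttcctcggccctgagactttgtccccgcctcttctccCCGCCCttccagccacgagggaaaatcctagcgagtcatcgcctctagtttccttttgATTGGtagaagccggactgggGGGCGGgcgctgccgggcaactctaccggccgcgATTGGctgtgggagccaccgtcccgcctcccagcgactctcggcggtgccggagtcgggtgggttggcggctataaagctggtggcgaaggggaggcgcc
MVD: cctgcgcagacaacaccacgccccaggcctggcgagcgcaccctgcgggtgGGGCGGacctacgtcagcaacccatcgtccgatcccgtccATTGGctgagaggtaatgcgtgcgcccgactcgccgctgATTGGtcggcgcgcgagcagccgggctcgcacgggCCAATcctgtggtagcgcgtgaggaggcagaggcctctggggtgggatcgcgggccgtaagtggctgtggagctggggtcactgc
IDI1: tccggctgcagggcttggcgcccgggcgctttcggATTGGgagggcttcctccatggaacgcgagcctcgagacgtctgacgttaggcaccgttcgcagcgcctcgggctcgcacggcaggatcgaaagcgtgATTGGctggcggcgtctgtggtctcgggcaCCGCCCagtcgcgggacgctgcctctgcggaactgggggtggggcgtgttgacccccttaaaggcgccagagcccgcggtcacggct
STARD4: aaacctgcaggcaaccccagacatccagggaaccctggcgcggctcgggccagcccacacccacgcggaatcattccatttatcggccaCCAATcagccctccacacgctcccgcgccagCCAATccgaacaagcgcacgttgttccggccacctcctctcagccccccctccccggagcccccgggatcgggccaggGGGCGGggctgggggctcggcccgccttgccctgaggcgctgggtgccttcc
SCD: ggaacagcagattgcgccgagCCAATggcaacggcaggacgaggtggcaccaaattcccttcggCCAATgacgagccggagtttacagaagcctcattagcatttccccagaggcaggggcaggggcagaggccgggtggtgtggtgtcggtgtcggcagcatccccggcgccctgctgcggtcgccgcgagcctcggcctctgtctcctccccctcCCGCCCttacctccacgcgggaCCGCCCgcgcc
SREBF1: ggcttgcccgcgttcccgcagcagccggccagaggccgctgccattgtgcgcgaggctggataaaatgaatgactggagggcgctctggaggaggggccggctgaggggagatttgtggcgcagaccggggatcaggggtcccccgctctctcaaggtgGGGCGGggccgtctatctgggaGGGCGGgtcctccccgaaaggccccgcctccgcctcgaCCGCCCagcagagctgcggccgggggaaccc
SREBF2: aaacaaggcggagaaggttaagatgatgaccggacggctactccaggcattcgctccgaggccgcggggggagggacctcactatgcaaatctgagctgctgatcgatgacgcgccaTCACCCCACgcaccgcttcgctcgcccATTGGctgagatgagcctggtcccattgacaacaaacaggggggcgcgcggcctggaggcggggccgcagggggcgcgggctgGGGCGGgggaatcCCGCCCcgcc

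CCAAT stood in at least 1 stretch of 19 of the 26 members (73.1%), against 37.0% of 27305 genes with a promoter in the table and 25 of 50 other lipid genes. By role it was found in 5 of 6 genes of the mevalonate steps, in all 8 of the late sterol steps with a promoter and in 3 of 5 of fatty acid synthesis. It was found in 2 of 4 genes of SREBP control and in 1 of 3 of uptake and transport. GGGCGG stood in 25 of the 26 members (96.2%), against 46.2% of all genes and 42 of the 50 other lipid genes. TCACNCCAC was found in SREBF2 alone among the members, where it begins at position -133, counting the last base before the start site as -1, with a CCAAT match on the opposite strand from -106. Of all genes 1.09% held it. In the 7 stretches shown, no matches overlap one another. A match in these letters is a description and not a binding site, and no factor binding was measured.

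The 4 arrays had median log2 intensities of 6.15 to 6.19 over all probe sets. WIF1, the induced gene, was read by 1 probe set at 2.98 and 2.90 without induction and 2.93 and 3.03 with it. Those values overlap, so induction could not be checked through this probe set. Whether it lies in the expressed sequence is not known here. The glioma and astrocyte markers VIM, NES, SOX2, S100B and CD44 were bright, and 9 of 10 such markers were no dimmer than the median probe set. GFAP was the exception, at 5.44 to 5.92. By the same measure 12722 of all 19775 genes were no dimmer than the median probe set, each at its brightest probe set. Markers of other cells were mixed. PTPRC of leukocytes (3.57 to 3.92), EPCAM of epithelium (3.18 to 3.31), CDH5 of endothelium (3.82 to 4.15) and ADIPOQ of fat cells (2.82 to 2.97) were dim. No dimmer than the median probe set were 2 of 4 leukocyte markers (CD3E and AIF1), 2 of 4 endothelial (PECAM1 and VWF), 2 of 4 epithelial (KRT8 and KRT18, the latter at 11.61 to 11.67), 1 of 4 adipocyte (CIDEC) and 4 of 4 neuronal, among them SYT1 and GAD1. Mean levels of the 4 adipocyte markers were 4.98 to 4.99 in the controls and 5.01 to 5.07 after induction.

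Most members had slightly lower values in the induced arrays, and none passed the test. Differences were tested with limma, which borrows information on the spread across all probe sets, and p-values were adjusted by Benjamini-Hochberg over all 54613. The smallest adjusted p of a member was 0.413, for LPL, and 0% of all 19775 genes passed at 0.05. By sign 25 of the 30 members were lower, against 51.2% of all genes. Their median difference was -0.072, against -0.0030 over all genes and -0.0051 over the 12722 genes whose mean is no lower than the array-wide median (6.16), where all 30 members lie. Both induced arrays lay below both controls in 16 members (53.3%), against 22.4% of all genes, and above both in 1, against 21.4%. At an unadjusted p under 0.05 there were 7 lower members (23.3%), against 4.73% of all genes, and 0 higher members, against 6.48%. The members were listed with earlier results of these data known, so these shares describe the list and give no independent support. In 12 of 30 members the difference was larger than both gaps between replicates. The share of all genes with such a difference was not computed, so this count has nothing to be set against. With arrays centred on their medians, 4 members were lower at that p, namely IDI1, SREBF1, STARD4 and LPL. Without an intensity trend in the spread there were also 4, with MVD in place of STARD4. The share of all genes was not computed under either setting, so these counts have no share of their own beside them.

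**Figure D1:**
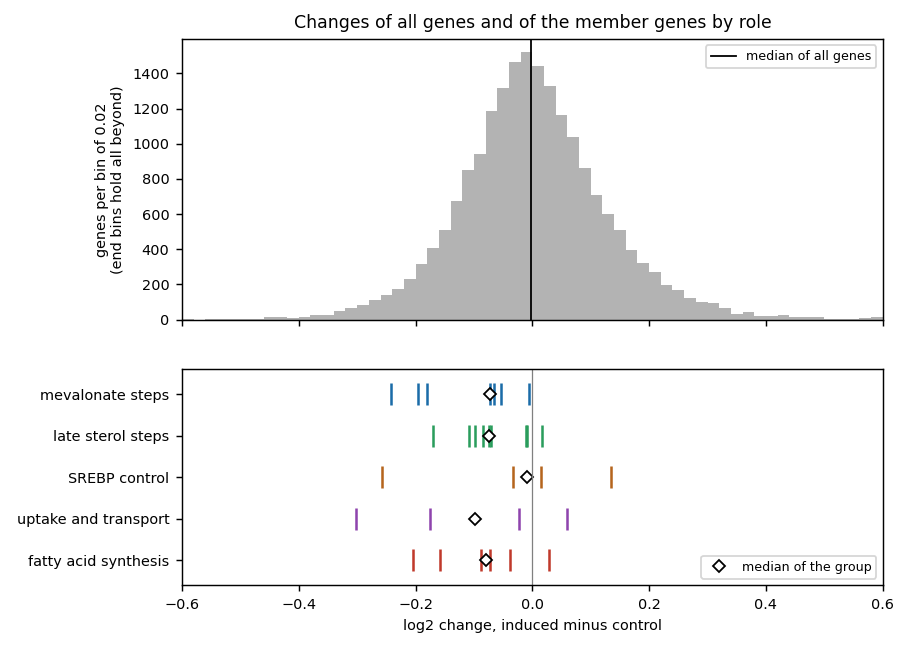
Top, histogram of the log2 change (induced minus control) of all 19775 genes in bins of 0.02, the end bins holding all values beyond. Bottom, the 30 members by role, 1 tick a gene, with the median of each group as a diamond; the medians lie from -0.099 to -0.0091, and most ticks lie left of 0.

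The shift was of like size in most roles. Median differences were -0.072 for the 7 mevalonate steps, -0.075 for the 9 late sterol steps, -0.080 for the 6 genes of fatty acid synthesis and -0.099 for the 4 genes of uptake and transport. For the 4 genes of SREBP control, which pointed both ways, the median was -0.0091, or 0.016 with arrays centred on their medians and 0.0027 with cyclic loess. The number of members lower at an unadjusted p under 0.05 was 3 of 7, 0 of 9, 1 of 6, 2 of 4 and 1 of 4 in this order. Over all genes the share was 4.73%, and roles of 4 to 9 genes give only coarse shares. Differences between roles were not tested. In bulk RNA, less RNA in each cell and fewer cells with it cannot be told apart.

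In the mevalonate steps all 7 enzymes were lower by sign, against 51.2% of all genes, with the clearest differences at HMGCS1, MVD and IDI1. HMGCS1, which makes HMG-CoA, was at 9.20 and 9.25 without induction and at 8.92 and 9.13 with it. Both induced arrays were below both controls, the first much further than the second. The difference was -0.20 (SE 0.076, adjusted p = 0.488), or 0.873-fold. Its other probe set gave -0.15 (SE 0.18) with values that overlap, the controls standing far apart at 8.39 and 7.83.

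MVD, which decarboxylates mevalonate diphosphate to isopentenyl diphosphate, was at 6.97 and 6.99 without induction and at 6.82 and 6.78 with it. The groups do not overlap, and each was tight. The difference was -0.18 (SE 0.071, adjusted p = 0.490). IDI1, which isomerises isopentenyl diphosphate, was at 10.89 and 10.97 without induction and at 10.75 and 10.63 with it, again without overlap. Its difference of -0.24 (SE 0.053, adjusted p = 0.472), or 0.846-fold, was the most negative of the cholesterol enzymes among brightest probe sets.

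The 4 probe sets of IDI1 all pointed down, from -0.24 to -0.12. The second brightest read 10.85 and 10.89 without induction and 10.71 and 10.63 with it (difference -0.20, SE 0.043). These 2 and a dimmer one have names ending in x_at, which marks probes that can also bind other transcripts. IDI2, the neighbouring paralog, was dim and pointed the other way, at 5.81 and 5.75 without induction and 6.10 and 6.03 with it.

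The other 4 mevalonate enzymes lay between -0.072 and -0.0054. ACAT2, which joins 2 acetyl-CoA, differed by -0.072 (SE 0.053). PMVK, the kinase of phosphomevalonate, differed by -0.053 (SE 0.055), and FDPS, which makes farnesyl diphosphate, by -0.065 (SE 0.037). FDPS alone of these had groups that do not overlap. MVK, the mevalonate kinase, differed by -0.0054 (95% interval -0.13 to 0.12), and its 3 other probe sets gave -0.18, -0.083 and 0.0085.

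Late sterol enzymes were lower by sign in 8 of 9 genes (88.9%, against 51.2% of all genes). Of the 9, 4 were lower with groups that do not overlap (44.4%, against 22.4%). None reached an unadjusted p under 0.05 at its brightest probe set. DHCR7, the reductase of a final step to cholesterol, came nearest, at 8.97 and 8.92 without induction and 8.83 and 8.85 with it. The difference was -0.11 (SE 0.051, adjusted p = 0.531) without overlap. Its other probe set read 8.88 in both controls and 8.78 and 8.54 in the induced arrays (difference -0.22, SE 0.085, adjusted p = 0.490), with the second induced array low.

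TM7SF2, a sterol reductase, differed by -0.17 (SE 0.081), with both induced arrays at 6.85 and 6.83 below the controls at 6.94 and 7.08. LSS, which closes the sterol rings, differed by -0.098 (SE 0.047), also without overlap. Its dimmer probe sets gave -0.063 and 0.015. SQLE, the squalene epoxidase, differed by -0.075 (SE 0.058), and all 4 of its probe sets pointed down, from -0.13 to -0.075, with no overlap in 3. The groups of its brightest probe set only just parted, with 9.41 and 9.28 without induction and 9.26 and 9.28 with it.

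The other late enzymes had groups that overlap. NSDHL, a sterol dehydrogenase, gave -0.085 (SE 0.074) and MSMO1, which removes methyl groups from the sterol, -0.071 (SE 0.050). HSD17B7, a sterol keto-reductase, gave -0.0084 (95% interval -0.12 to 0.10) and EBP, a sterol isomerase, -0.011 (95% interval -0.12 to 0.095). All 4 probe sets of EBP pointed down, from -0.075 to -0.011. SC5D, a sterol desaturase, alone was higher by sign, at 0.016 (95% interval -0.11 to 0.14). Its second, dim probe set gave -0.34 (SE 0.13), from 5.48 and 5.39 to 5.27 and 4.93.

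**Figure D2:**
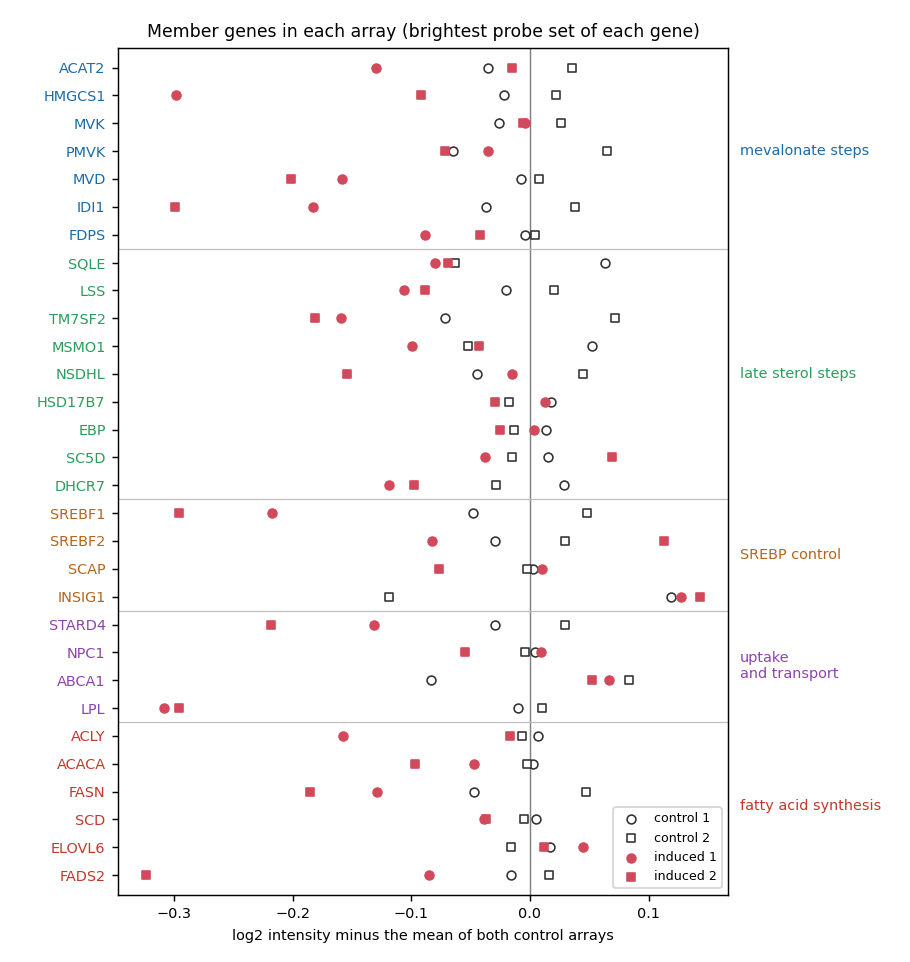
Log2 intensity of each of the 30 members in each array minus the mean of both controls, at the brightest probe set of each gene, grouped by role. Open symbols are controls 1 and 2 and filled symbols induced 1 and 2; filled symbols lie left of both open ones in 16 genes, and right of both in INSIG1.

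The genes that control SREBP activity did not point one way, and their probe sets disagreed. SREBF1, 1 of whose products is SREBP-1c, which favours fatty acid genes, was at 7.27 and 7.37 without induction and 7.10 and 7.02 with it. The groups do not overlap, and the difference was -0.26 (SE 0.075, adjusted p = 0.472), or 0.837-fold. Its second probe set gave -0.051 (SE 0.11), with the induced values on both sides of the controls.

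SREBF2, which encodes the factor that favours cholesterol genes, was at 8.03 and 8.09 without induction and 7.98 and 8.17 with it at its brightest probe set. The groups overlap, with a difference of 0.015 (95% interval -0.18 to 0.21). Another probe set read 7.97 and 8.02 without induction and 7.77 and 7.74 with it (difference -0.24, SE 0.060, adjusted p = 0.472) without overlap. The third gave 0.034 (SE 0.075). The brightest probe set gave -0.083 without the second induced array and -0.015 without the first control.

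INSIG1, which retains the SCAP and SREBP complex and is itself a well known SREBP target, split in the same way. Its brightest probe set was at 9.49 and 9.26 without induction and 9.50 and 9.52 with it (difference 0.14, SE 0.080, adjusted p = 0.588). The induced arrays were close together, and the first control was nearly as high. The other probe sets gave -0.17 (SE 0.059) and -0.20 (SE 0.063), each without overlap, from 9.16 and 9.05 to 8.90 and 8.97 and from 8.43 and 8.48 to 8.31 and 8.20. The direction of INSIG1 therefore depends on the probe set. SCAP differed by -0.033 (SE 0.056).

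Among genes of uptake and transport, LPL and STARD4 were lower and the other members were near 0. LPL, lipoprotein lipase, frees fatty acids from lipoproteins. It was at 8.72 and 8.74 without induction and 8.42 and 8.43 with it. Replicates lay close together, and the groups do not overlap. The difference was -0.30 (SE 0.051, adjusted p = 0.413), or 0.811-fold. The second probe set read 7.84 and 7.65 without induction and 7.73 and 7.53 with it, which overlap, with a difference of -0.12 (SE 0.099).

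STARD4 carries sterols between membranes. It was at 8.92 and 8.97 without induction and 8.81 and 8.73 with it, without overlap. The difference was -0.18 (SE 0.057, adjusted p = 0.472). NPC1, which exports cholesterol from lysosomes, differed by -0.023 (95% interval -0.13 to 0.088). ABCA1, the cholesterol efflux pump, differed by 0.059 (95% interval -0.14 to 0.26), and its 4 probe sets ranged from -0.17 to 0.13.

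Fatty acid synthesis was lower by sign in 5 of 6 genes (83.3%, against 51.2% of all genes). All 5 were without overlap (83.3%, against 22.4%). FASN, the fatty acid synthase, was at 8.98 and 9.08 without induction and 8.90 and 8.84 with it. The difference was -0.16 (SE 0.057, adjusted p = 0.477). Its second probe set, an x_at set, gave 0.060 (SE 0.072). FADS2, which desaturates polyunsaturated fatty acids, was at 7.76 and 7.80 without induction and 7.70 and 7.46 with it. That difference of -0.20 (SE 0.091, adjusted p = 0.513) leaned on the second induced array.

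ACLY, which supplies cytosolic acetyl-CoA to both routes, was at 10.70 and 10.69 without induction and 10.54 and 10.68 with it at its brightest probe set. Here the second induced array was level with the controls, and the difference was -0.088 (SE 0.054, adjusted p = 0.599). A second probe set read 9.05 and 9.09 without induction and 8.86 and 8.91 with it (difference -0.18, SE 0.051, adjusted p = 0.472). The third gave -0.086 (SE 0.056), and no probe set of ACLY overlapped.

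SCD, the desaturase that makes monounsaturated fatty acids, differed between its brightest and its dimmer probe sets. The brightest was at 10.71 and 10.70 without induction, against 10.66 and 10.67 in the induced arrays (difference -0.038, SE 0.036, adjusted p = 0.733). The next read 9.07 and 9.06 without induction and 8.86 and 8.71 with it (difference -0.27, SE 0.064, adjusted p = 0.472). The dimmer ones gave -0.31 (SE 0.085) and -0.32 (SE 0.094). All 4 were without overlap.

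ACACA, which makes malonyl-CoA, differed by -0.072 (SE 0.048) without overlap, and its other probe set by -0.0094 (SE 0.063). ELOVL6, which lengthens saturated fatty acids, stood at 0.028 (95% interval -0.067 to 0.12), and its dimmer probe sets gave -0.045 and -0.10.

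Over all 70 probe sets 58 were lower by sign, against 55.1% of all probe sets. In 37 both induced arrays lay below both controls, against 23.5%, and 17 were lower at an unadjusted p under 0.05, against 5.27%. In the other direction 2 stood above both controls, against 17.9%, and 0 reached that p, against 4.75%. Probe sets of a gene read the same RNA, so they are not independent. SC5D, SREBF2, INSIG1, MVK, LSS, NPC1, ABCA1, FASN and ELOVL6 had probe sets of both signs. The position of each probe set along its transcript is not known here. For ACTB the control probe sets at the 3' end minus those at the 5' end gave -0.036 and 0.021 without induction and 0.033 and 0.11 with it. For GAPDH they gave -0.067 and -0.069, then -0.043 and -0.047. The part of this end difference in the probe set disagreement was not tested.

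**Figure D3:**
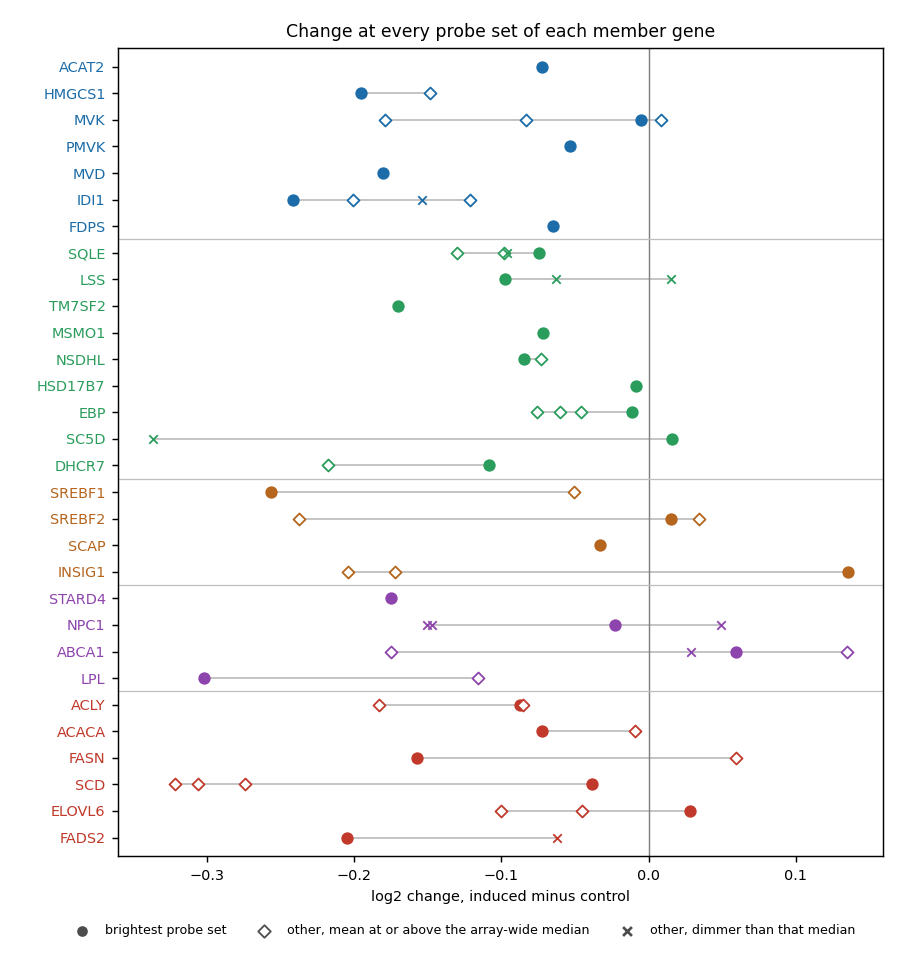
Log2 change (induced minus control) at each of the 70 probe sets of the 30 members. Filled circles are the brightest probe set of a gene, diamonds others no dimmer than the array-wide median, crosses dimmer ones, and a line joins those of a gene; SC5D, INSIG1, ABCA1, SCD and SREBF2 spread most, in this order, while the 4 sets each of IDI1, SQLE, EBP and SCD all lie left of 0.

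Both induced arrays carried the shift. Over the 30 members the median deviation from the control mean was -0.084 in the first induced array and -0.070 in the second, with 23 and 25 members below the control mean. Over all 19775 genes the medians were -0.0064 and 0.0018, with 10379 and 9776 genes below the control mean. The controls deviated by -0.0086 and 0.0086, which mirror each other because the deviations are taken from their own mean. Both induced arrays are set against that same mean, so their medians are not independent. In the mevalonate steps the first induced array was lower, at -0.13 against -0.072. In uptake and transport the second was lower, at -0.14 against -0.061.

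No member was called with any array left out. The number lower at an unadjusted p under 0.05 was 4 without the first control, 2 without the second control, 5 without the first induced array and 4 without the second. IDI1 and LPL were among them each time. Such fits take the spread of a group with 1 array from the other arrays, and the share of all genes was not computed for them. HMGCS1 ranged from -0.30 without the second induced array to -0.092 without the first, and FADS2 from -0.086 to -0.32 in the same order. ACLY was at -0.16 without the second induced array and -0.017 without the first. LPL ranged from -0.31 to -0.29, and INSIG1 from 0.017 without the second control to 0.25 without the first. The late sterol median was -0.019 without the first control.

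**Figure D4:**
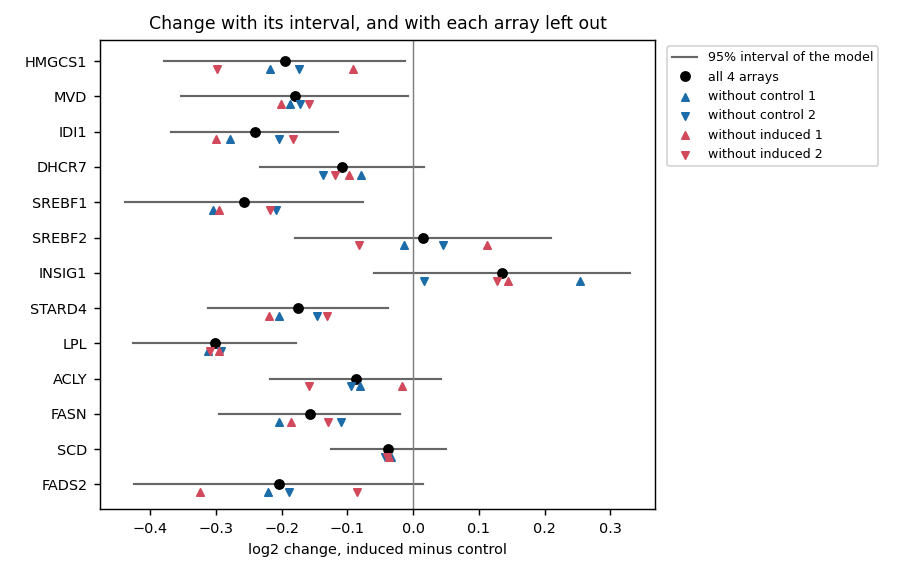
Log2 change of 13 members at the brightest probe set with all 4 arrays (black point, with the 95% interval of the limma model as a bar) and with each array left out (triangles). Of the 13 only SREBF2 changes sign, while HMGCS1, FADS2, ACLY and INSIG1 keep theirs but move widely with a single array.

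Other genes of the same pathways pointed both ways. Of 62 listed, 56 were measured, with a median of -0.018, 32 lower by sign (57.1%, against 51.2% of all genes) and none passing the test. At an unadjusted p under 0.05 there were 5 lower, against 4.73% of all genes, and 6 higher, against 6.48%. Other isoprenoid and sterol enzymes had a median of 0.047 over 16 genes, 10 of them higher by sign. Without overlap 8 of the 16 stood above the controls, against 21.4% of all genes, and 2 below (12.5%, against 22.4%). Other sterol control and transport genes had a median of -0.075 over 17, with 14 lower by sign (82.4%, against 51.2% of all genes) and 9 below the controls without overlap (52.9%, against 22.4%). For other fatty acid and glycerolipid enzymes it was -0.034 over 23.

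SOAT1, which esterifies cholesterol for storage, was at 9.93 and 9.74 without induction and 10.03 and 10.25 with it (difference 0.31, SE 0.0895, adjusted p = 0.472). The acyl-CoA synthetases ACSL1 and ACSL4, which activate fatty acids, differed by 0.27 (SE 0.082) and 0.28 (SE 0.082). FNTA, a subunit of protein prenyltransferases, differed by 0.094. FNTB, another such subunit, was dim, with a mean of 5.80, and pointed the other way, at -0.35 (SE 0.12). These genes had groups that do not overlap.

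LIPA, the lysosomal acid lipase that releases cholesterol from its esters, was at 10.77 and 10.75 without induction and 10.58 and 10.56 with it (difference -0.19, SE 0.037, adjusted p = 0.472). SCARB1, a lipoprotein receptor, differed by -0.17 (SE 0.064). RNF145, a ubiquitin ligase of sterol control, and ERG28, a scaffold of sterol enzymes, differed by -0.11 each. Beside these, 4 of 10 glioma markers were lower at an unadjusted p under 0.05, against 4.73% of all genes, with FABP7 at -0.19 and SOX2 at -0.15. At that p 0 were higher, but by sign CD44 (0.065) and TNC (0.063) were, TNC without overlap. The mean level of the 10 markers was 10.65 to 10.70 in the controls and 10.59 to 10.61 in the induced arrays. Neuronal markers had a median difference of 0.067, and 1 of 4 was higher at that p, against 6.48% of all genes. This was SYT1, a synaptic vesicle protein, at 9.07 and 8.95 without induction and 9.42 and 9.31 with it (difference 0.35, SE 0.065). The mean level of the 4 neuronal markers was 7.85 to 7.90 in the controls and 7.95 to 8.03 in the induced arrays. The part of the glioma and neuronal markers in the lipid results was not tested.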

How the data were processed

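The deposited values are log2 intensities per probe set, made by the authors by RMA (affy package), as the submitters' processing notes record, the version not being given in the sources used here. This method corrects background, makes probe intensity distributions equal between arrays and summarises each probe set, so a shift shared by most genes would not be seen. Of 54675 rows, 62 control probe sets were left out. Genes were named from the platform annotation (41091 probe sets with 1 symbol, 1801 with several, 11721 with none). The brightest probe set of a gene, the one of highest mean, represents it.

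All probe sets were fitted with limma 3.58.1 in R 4.3.3 (eBayes with an intensity trend, 2-sided, 6.27 degrees of freedom). The code was checked on simulated data. Alternatives were a replicate block, other eBayes settings, filters on dim probe sets, centred arrays, cyclic loess, averaged or median probe sets, stricter and looser thresholds, and leaving out each array. With 2 arrays a group no exact permutation test goes below p = 0.333.

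Values per array are given for members with an unadjusted p under 0.05 or a difference of at least 0.2, for the member of smallest p in a role without any, and for members with another bright probe set (mean at least 6.16) under 0.05. Of other lipid genes, up to 4 in each direction were named by smallest p among those as bright. Any gene outside this rule was picked with its values in view. Members and lists were chosen with earlier results of these data known.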

Additional observations from a re-analysis of the deposited data

How the results depend on the processing

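No member and no other lipid gene was called under any alternative, and each median over all members stayed below 0. Against 7 lower members at an unadjusted p under 0.05, there were 4 without the intensity trend, 4 with arrays centred on their medians and 2 at an unadjusted p of 0.01, and 2 to 5 with 1 array left out. Higher members numbered 0, and 0 to 1 with an array left out. Averaging probe sets gave 10 lower members, 5 of them shared. The share of all genes at the same p was computed for the main fit only (4.73% lower). Counts under the alternatives therefore cannot be set against a share of their own. Of other lipid genes, 5 were lower, against 2, 2 and 1 under the first 3 of these settings, 3 among probe sets at or above the median, and 2 to 6 with an array left out. Another 6 were higher, against 3 with the replicate block, 2 with averaged probe sets, 0 at 0.01 and 0 to 5 with an array left out.

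Centring moved the median of all genes from -0.0030 to 0.022, and the medians to -0.048 for all members, -0.050 for late sterol steps, -0.055 for fatty acid synthesis and 0.016 for SREBP control, which changed sign there and with cyclic loess (0.0027). SREBP control gave -0.072 with averaged probe sets and -0.093 with the median over a gene's probe sets, where uptake and transport gave -0.13. With an array left out the medians ranged from -0.084 to -0.068 for all members, -0.13 to -0.061 for mevalonate steps, -0.080 to -0.019 for late sterol steps, -0.036 to 0.018 for SREBP control (above 0 without the first induced array), -0.14 to -0.061 for uptake and transport and -0.085 to -0.067 for fatty acid synthesis. SREBF2 turned to -0.063 with averaged probe sets, and with an array left out it ranged from -0.083 to 0.11, below 0 without the first control or the second induced array. INSIG1 turned to -0.080 with averaged probe sets and -0.17 with their median.

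Deviations of arrays with the same replicate number correlated at 0.056 over all probe sets. The labels do not say whether arrays of the same number were handled together, and this 1 value cannot settle it. With the replicate block 5 members were lower at an unadjusted p under 0.05.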
